A study of Mus musculus with 6 samples.

Results

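Tfeb, Tfe3 and Mitf are the transcription factors that switch on lysosome and autophagy genes, and their signals were examined with those of the folliculin proteins that hold them back (Flcn and Fnip1) and of 4 lysosomal genes (Mcoln1, Gpnmb, Ctsd and Lamp1) in 6 mouse induced pluripotent stem cell (iPSC) clones. These are 9 of the 18193 genes that have a probe set of their own on the array. Every probe set whose annotation names 1 of the 9 genes alone was taken, which gave 17 of 45037 probe sets. The genes were selected on signals of these same arrays, with the lower Tfeb signal of one clone group already known. Their group differences are therefore given as a description with no p-value, and nothing is read from whether they pass a threshold. The gene lists used further on were also drawn up with earlier results of these data known, so their p-values are not those of lists fixed beforehand.

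All clones were made from Nanog-GFP mouse embryonic fibroblasts infected with retroviruses carrying Oct3/4, Sox2, Klf4 and c-Myc together with dsRed, and the fibroblasts were re-plated on SNL feeder cells. Established clones were grown on SNL feeder cells too, in medium with serum and leukemia inhibitory factor. All clones were also maintained after colony picking with 3i, which combines inhibitors of GSK3 (CHIR99021), of MEK (PD184352) and of the FGF receptor (SU5402). The 3 (−)/(+) clones (clones 1, 2 and 3) had received no 3i while they were being reprogrammed, whereas the 3 (+)/(+) clones (clones 4, 5 and 6) had received it in that phase too. Each sample was 1 clone on 1 array, so a group is 3 clones and a difference between groups is one between clones. The p-values set that difference against the spread between these clones. No scan date came with the arrays used here, and a batch that follows the groups cannot be told apart from them.

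Tfeb, Tfe3 and Mitf belong to the MiT/TFE family of basic helix-loop-helix leucine zipper factors, which bind E-box letters in the promoters of lysosomal genes. When nutrients are plentiful, folliculin and its partner Fnip1 act on the Rag GTPases at the lysosome, mTORC1 phosphorylates the factors and they stay in the cytoplasm. GSK3, which CHIR99021 inhibits, can phosphorylate them too, and in mouse embryonic stem cells the folliculin complex keeps Tfe3 out of the nucleus when cells leave pluripotency. An array measures the RNA of these genes, not where the proteins lie in the cell.

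Promoter sequences were looked at first, because binding of the family starts from a few letters. RefSeq windows (GRCm38.p6) of 250 bases before and 50 bases from the start of transcription were found for 9 of 9 genes, 14 windows in all. They were searched on both strands for the E-box CACGTG, for TCACGTGA, which contains it, and for TCATGTGA. CACGTG was found in 4 of 14 windows (28.6%), against 7.15% of all 32851 windows. TCACGTGA was found in 2 of 14 windows (14.3%, against 0.974% of all), and TCATGTGA in 0 of 14 (0.986% of all). The 4 windows that hold the letters belong to 1 regulator, Fnip1, and to 3 lysosomal genes, Mcoln1, Ctsd and Lamp1. They are printed 5′ to 3′ on the strand of the gene, with CACGTG in capitals, since they are the windows in which the family's letters could be read. Fnip1 lies at chr11:54437929-54438228 (plus strand), Mcoln1 at chr8:3500269-3500568 (plus strand), Ctsd at chr7:142387778-142388077 (minus strand) and Lamp1 at chr8:13158911-13159210 (plus strand).
Fnip1: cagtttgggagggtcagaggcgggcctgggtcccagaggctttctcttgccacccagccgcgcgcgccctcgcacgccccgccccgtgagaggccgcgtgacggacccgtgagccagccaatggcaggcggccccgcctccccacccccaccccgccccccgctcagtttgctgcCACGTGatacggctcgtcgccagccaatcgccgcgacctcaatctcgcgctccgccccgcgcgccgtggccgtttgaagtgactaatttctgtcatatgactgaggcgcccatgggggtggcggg
Mcoln1: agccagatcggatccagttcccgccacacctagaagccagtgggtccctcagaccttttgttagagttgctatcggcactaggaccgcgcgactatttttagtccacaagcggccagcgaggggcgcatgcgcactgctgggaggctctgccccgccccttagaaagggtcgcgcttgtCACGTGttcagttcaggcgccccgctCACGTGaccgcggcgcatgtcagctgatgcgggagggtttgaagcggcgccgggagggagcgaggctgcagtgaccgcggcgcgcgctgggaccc
Ctsd: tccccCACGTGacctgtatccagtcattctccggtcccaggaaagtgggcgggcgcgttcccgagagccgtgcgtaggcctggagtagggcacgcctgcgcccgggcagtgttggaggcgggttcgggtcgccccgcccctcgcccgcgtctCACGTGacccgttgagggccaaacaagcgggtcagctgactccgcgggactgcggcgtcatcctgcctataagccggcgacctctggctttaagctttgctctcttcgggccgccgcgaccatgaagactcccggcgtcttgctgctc
Lamp1: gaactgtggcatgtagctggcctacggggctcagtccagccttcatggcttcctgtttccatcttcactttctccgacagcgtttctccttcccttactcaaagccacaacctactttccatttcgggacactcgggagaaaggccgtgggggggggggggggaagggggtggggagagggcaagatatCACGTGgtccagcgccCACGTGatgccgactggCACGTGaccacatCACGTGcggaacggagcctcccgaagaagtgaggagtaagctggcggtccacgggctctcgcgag

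In the Fnip1 window the motif began 75 bases before the start of transcription. In Mcoln1 it began 71 and 45 bases before it, and the nearer copy is the 8-letter form TCACGTGA. In Ctsd it began 245 and 98 bases before the start, and again the nearer copy is the 8-letter form. The Lamp1 window held 4 copies, which began 61, 45, 28 and 15 bases before the start, and none of them is the 8-letter form. The windows of Tfeb (3), Tfe3 (2), Mitf (3), Flcn (1) and Gpnmb (1) did not hold CACGTG, which says only that these letters are not in these windows. A match is a description of the sequence and not evidence that a factor binds there.

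**Figure D1:**
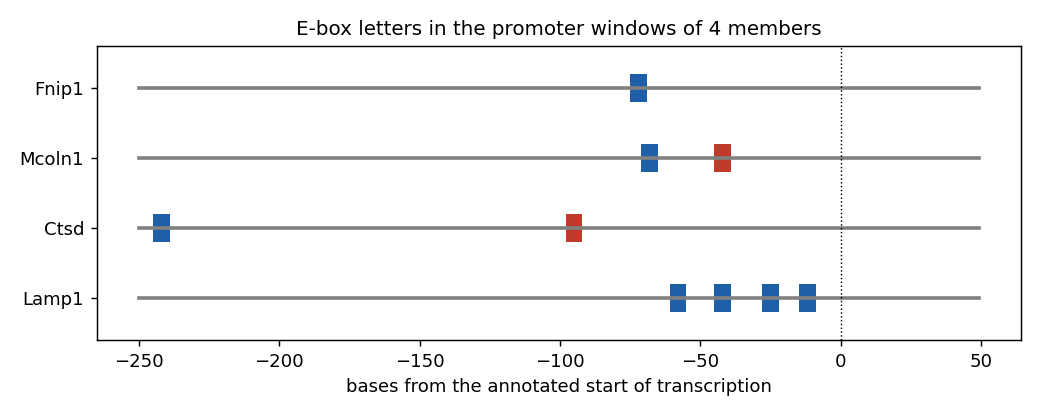
Position of CACGTG in the promoter windows of Fnip1, Mcoln1, Ctsd and Lamp1, in bases from the annotated start of transcription (dotted line at 0). Blue boxes mark CACGTG and red boxes the copies that are part of TCACGTGA; Lamp1 holds 4 boxes, all within 61 bases of the start, and Mcoln1 and Ctsd hold 1 red box each.

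RNA of each clone was measured on a 1-colour Affymetrix array as a MAS 5.0 signal, a linear intensity, and every array had been scaled to the same trimmed mean. The median signal was 74.2 to 75.7 in the (−)/(+) clones and 64.1 to 70.2 in the (+)/(+) clones. Differences are given as (+)/(+) minus (−)/(+) on the scale of log2(signal + 16), which understates the change of dim genes. Probe sets in the brighter part of the array, with the threshold at a signal of about 67.2, were tested with limma, and 703 of 22518 (3.12%) passed an adjusted p of 0.05, of which 305 were higher and 398 lower in the (+)/(+) clones. When each array was instead scaled to a common median, 917 were higher and 238 lower, and the median difference of all tested probe sets moved from -0.05 to 0.10 on the log2 scale.

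The label of the cells was checked on 10 pluripotency genes, which were all above the filter in these clones. Pou5f1, which encodes Oct4 and was named with its values known, had signals between 8034 and 9793 in the 6 clones. Of the 10 genes, 1 passed the test: Fbxo15, a gene of undifferentiated cells, was higher in the (+)/(+) clones (log2 difference 0.64 ± 0.10 SE, n = 3 and 3, limma adjusted p = 0.0144, a call that was lost without clone 5, at 0.66, or clone 6, at 0.59). Of 22 fibroblast and feeder markers, 19 were tested. Of these, 8 passed as lower and 0 as higher in the (+)/(+) clones, beside 1.41% and 1.55% of all genes tested. Only Postn had a positive difference (0.22), which did not pass. The summed signal of the 22 was 22211 to 30806 in the (−)/(+) clones and 14136 to 15889 in the (+)/(+) clones. Vim, S100a4 and S100a6 made up most of it in every clone. Postn and S100a4 were named after their values were seen. Col1a2, a collagen gene of fibroblasts, gave 1441, 1701 and 2096 in clones 1, 2 and 3, against 468, 694 and 559 in clones 4, 5 and 6, without overlap (log2 difference -1.58, limma adjusted p = 0.00426). Fbln2, Vim and S100a6 also passed, at -0.98, -0.87 and -0.73, and lost the call without clone 6, at -0.87, -0.86 and -0.74. The sources used here do not say whether feeder cells were removed before RNA was taken for the arrays. In bulk RNA, fewer cells of a type and less RNA per cell cannot be told apart.

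Of the 17 probe sets, 13 passed the filter, and they stand for 8 of the 9 genes. The fit across all probe sets put 2 of the 13 past the threshold, those of Tfeb and Mitf, both lower in the (+)/(+) clones, and 0 higher, where 1.77% of all tested probe sets were called lower and 1.35% higher. Nothing is read from this count, because signals of the same contrast chose the genes and because Tfeb reached the filter only through its level in the (−)/(+) clones. The other 11 probe sets that passed the filter differed by no more than 0.25 on the log2 scale in either direction. The groups did not overlap for 3 of the 13, those of Tfeb, Mitf and Ctsd, against 27.1% of all tested probe sets.

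**Figure D2:**
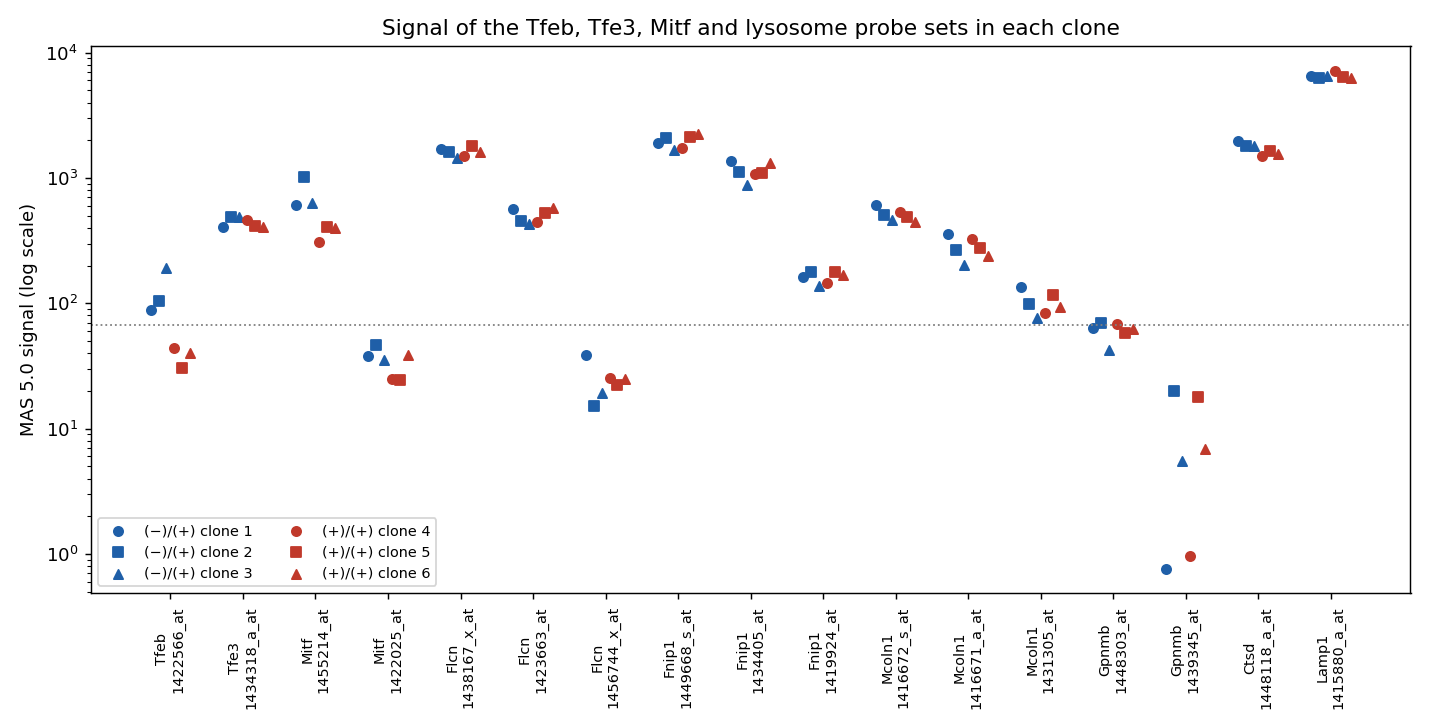
MAS 5.0 signal (log scale) of each of the 17 probe sets in each clone, with (−)/(+) clones in blue and (+)/(+) clones in red, and the dotted line at the filter of about 67.2. Tfeb lies above the line in the 3 (−)/(+) clones and below it in the 3 (+)/(+) clones, and Mitf 1455214_at keeps the groups apart at 611 to 1015 against 306 to 409, while most other probe sets show the groups at one level.

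Tfeb is a main activator of lysosome formation and autophagy, and its gene lies on chromosome 17. Its only probe set (1422566_at) gave signals of 88.3, 104 and 191 in (−)/(+) clones 1, 2 and 3. It gave 43.7, 30.5 and 40.4 in (+)/(+) clones 4, 5 and 6. All (+)/(+) clones were below all (−)/(+) clones, and clone 3 stood above the other two of its group.

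The mean Tfeb signal was 128 ± 55.5 (SD, n = 3) in the (−)/(+) clones and 38.2 ± 6.87 (SD, n = 3) in the (+)/(+) clones, a log2 difference of -1.35 ± 0.28 (SE). Without clone 3 the difference was -1.05, and over all clones left out in turn it lay between -1.55 and -1.05. The gene is dim in both groups. Its mean log2 value was 7.10 in the (−)/(+) clones and 5.75 in the (+)/(+) clones, against a filter at 6.38, so it was tested only because of its level in the (−)/(+) clones. It passed by 0.05 and fell under the filter when clone 2 or clone 3 was left out. With a pseudocount of 64, which gives dim signals less weight, the difference was -0.87.

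Tfe3, the family member best known in mouse embryonic stem cells, is on the X chromosome. Its probe set (1434318_a_at) gave 409, 489 and 491 in clones 1, 2 and 3. It gave 467, 415 and 407 in clones 4, 5 and 6. The groups overlapped, and clone 1 was as low as the lowest (+)/(+) clones. The log2 difference was -0.10 ± 0.14 (SE). It turned to 0.05 when the arrays were scaled to a common median.

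Mitf is the regulator of pigment cells, osteoclasts and mast cells, and lies on chromosome 6. The brighter of its probe sets (1455214_at) gave 611, 1015 and 630 in clones 1, 2 and 3. It gave 306, 409 and 403 in clones 4, 5 and 6. The groups did not overlap, with clone 2 highest and clone 4 lowest.

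The means were 752 ± 228 and 373 ± 57.6 (SD, n = 3 each), a log2 difference of -0.96 ± 0.20 (SE). Leaving out each clone in turn gave -1.08 to -0.72. The other Mitf probe set (1422025_at) was under the filter, at 35.5 to 46.3 in the (−)/(+) clones and 24.3 to 38.7 in the (+)/(+) clones. Clone 6 lay within the (−)/(+) range there, and the log2 difference was -0.31. Tfec, the remaining family member, was listed on a probe set far below the filter, at 0.985 to 5.36 over the 6 clones.

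**Figure D3:**
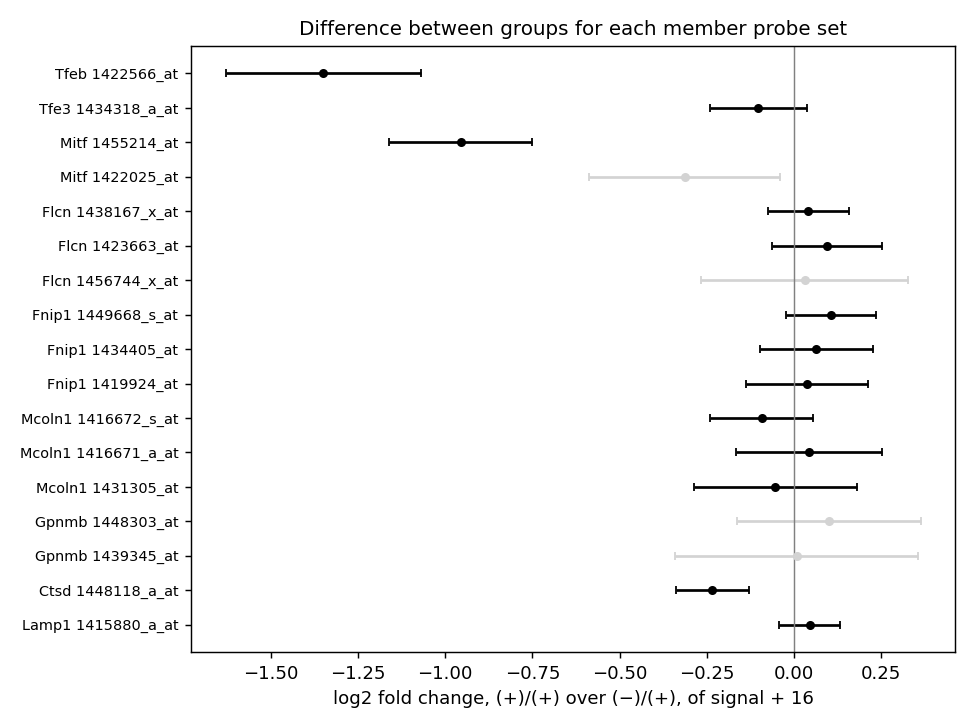
Difference between groups, (+)/(+) over (−)/(+), for the 17 probe sets on the log2(signal + 16) scale; points are estimates from 3 clones per group and bars are 1 SE either way, with the 4 probe sets under the filter in grey. Tfeb (-1.35) and Mitf 1455214_at (-0.96) stand to the left, and the other tested probe sets lie between -0.25 and 0.25.

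Markers of other cells that use these factors were looked at beside Tfeb and Mitf. Of 11 pigment cell targets of MITF, 9 were under the filter, among them, named with their values known, Tyr, Tyrp1 and Dct, which encode the melanin enzymes. The 2 that were tested did not pass, and their log2 differences were -0.66 for Pmel (adjusted p = 0.184) and -0.25 for Trpm1 (adjusted p = 0.746). The summed signal of the 11 was 602 to 981 in the (−)/(+) clones and 558 to 670 in the (+)/(+) clones. Of 11 macrophage markers 3 were tested and 0 passed (limma, 1 at an unadjusted p under 0.05, 0 by the methods' t-test).

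Cd68 and Csf1r differed by -0.40 (adjusted p = 0.323) and -0.17 (adjusted p = 0.666). The 1 at an unadjusted p under 0.05 was Laptm5, a lysosomal membrane protein of blood cells. It gave 1020, 2523 and 1784 in clones 1, 2 and 3 against 658, 968 and 940 in the (+)/(+) clones, which differed by -0.97 on the log2 scale (adjusted p = 0.0844). Without clone 1 the difference was -1.32 and passed the test, as did that of Pmel at -0.94. The summed signal of the macrophage list was 1556 to 3096 in the (−)/(+) clones and 1126 to 1542 in the (+)/(+) clones. Laptm5 made up most of this sum in every clone, so the sum does not describe the list as a whole. The part of these markers and of the fibroblast markers in the difference of Tfeb and Mitf was not tested.

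The genes whose signals followed Tfeb most closely over the 6 clones were Dclk1 (Pearson r = 0.9951), Cav2 (0.9944), Smarcc1 (0.9941), Cyp1b1 (0.992) and Cachd1 (0.9919). These are correlations over 6 points that hold the group difference, and 102 of 11176 genes reached 0.95. Cav2, which encodes a caveolin, gave 514, 569 and 780 in clones 1, 2 and 3, against 302, 252 and 302 in clones 4, 5 and 6. Clone 3 was the highest and clone 5 the lowest for Cav2, as for Tfeb. Mitf correlated with Tfeb at 0.7172, and its closest genes, chosen after the values were seen, were Prr13 (0.9978), Wnk1 (0.997), Decr2 (0.9927), Spata7 (0.9901) and Kif1c (0.99). Of 11176 genes, 123 reached 0.95 with Mitf.

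Flcn encodes folliculin, which works on RagC and RagD at the lysosome. Its brightest probe set (1438167_x_at, of a kind that can cross-hybridise) gave 1708, 1610 and 1458 in clones 1, 2 and 3. It gave 1505, 1789 and 1622 in clones 4, 5 and 6. The groups overlapped, with a log2 difference of 0.04. A further probe set (1423663_at) gave 570, 452 and 431 against 448, 522 and 580, a difference of 0.09 with the groups overlapping. The remaining one (1456744_x_at) was under the filter at 15.0 to 39.0.

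Fnip1 is the partner protein of folliculin. The first of its probe sets (1449668_s_at) gave 1887, 2083 and 1682 in clones 1, 2 and 3, against 1742, 2115 and 2244 in clones 4, 5 and 6. The groups overlapped, with a log2 difference of 0.11. A second probe set (1434405_at) gave 1368, 1118 and 886 against 1080, 1099 and 1307, and a dim one (1419924_at) gave 137 to 177 over all 6 clones. Their differences were 0.06 and 0.04, again with the groups overlapping.

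Mcoln1 encodes TRPML1, the calcium channel of the lysosome membrane, and is a target of Tfeb in human cells. Its brightest probe set (1416672_s_at) gave 604, 509 and 462 in clones 1, 2 and 3, against 534, 489 and 445 in clones 4, 5 and 6. The others (1416671_a_at and 1431305_at) gave 203 to 357 and 75.7 to 136 over the 6 clones. The groups overlapped on all 3 probe sets, with differences of -0.09, 0.04 and -0.05.

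Gpnmb is a membrane glycoprotein of pigment cells and macrophages, and a known target of the family. Both of its probe sets were under the filter. One of them (1448303_at) gave 63.0, 69.6 and 42.2 in clones 1, 2 and 3, against 68.0, 57.7 and 62.2 in clones 4, 5 and 6, and lay 0.13 below the filter on the log2 scale. The other (1439345_at) gave 0.764 to 19.9 over the 6 clones. The groups overlapped on both.

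Ctsd encodes cathepsin D, an aspartic protease of the lysosome. Its probe set (1448118_a_at) gave 1985, 1787 and 1791 in clones 1, 2 and 3. It gave 1505, 1654 and 1562 in clones 4, 5 and 6. All (+)/(+) clones were below all (−)/(+) clones, but the difference was small, at 1854 ± 113 against 1574 ± 75.6 (SD, n = 3 each). The log2 difference was -0.23 ± 0.11 (SE), and -0.08 when the arrays were scaled to a common median.

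Lamp1 encodes a glycoprotein that coats the inner face of the lysosome membrane. Its probe set (1415880_a_at) gave 6478, 6225 and 6519 in clones 1, 2 and 3, against 7167, 6434 and 6256 in clones 4, 5 and 6. The groups overlapped, with clone 4 the highest of all. The log2 difference was 0.04, and 0.20 under scaling to a common median.

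Shifts of whole chromosome regions in single clones were measured around each gene, with each gene's 6-clone median taken as 0 and the median log2 shift per clone read over the 20 nearest bright genes. Around Tfeb and Mitf every clone lay between -0.11 and 0.07, and the groups differed by 0.03 and 0.01. Clone 1 stood apart on chromosome 11, at 0.36 around Flcn and 0.26 around Fnip1, while the shifts of Flcn and Fnip1 themselves in that clone were 0.08 and -0.07. Clone 4 stood apart on chromosome 8, at 0.33 around Mcoln1 and 0.40 around Lamp1, with shifts of 0.09 and 0.15 of the genes themselves. Both shifts ran over the whole chromosome, at 0.27 for clone 1 (501 genes of chromosome 11) and 0.41 for clone 4 (328 genes of chromosome 8). Clone 3 was at -0.43 around Gpnmb, which was itself shifted by -0.43 in that clone. Around Tfe3 clone 2 was highest at 0.19 and clone 1 lowest at -0.10. Without clones 1 and 4, chosen after seeing the data, the difference was -1.62 for Tfeb, -0.24 for Tfe3, -0.95 for Mitf 1455214_at and -0.15 for Ctsd. For Flcn it was 0.15 on the brightest probe set (1438167_x_at) and 0.31 on 1423663_at.

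**Figure D4:**
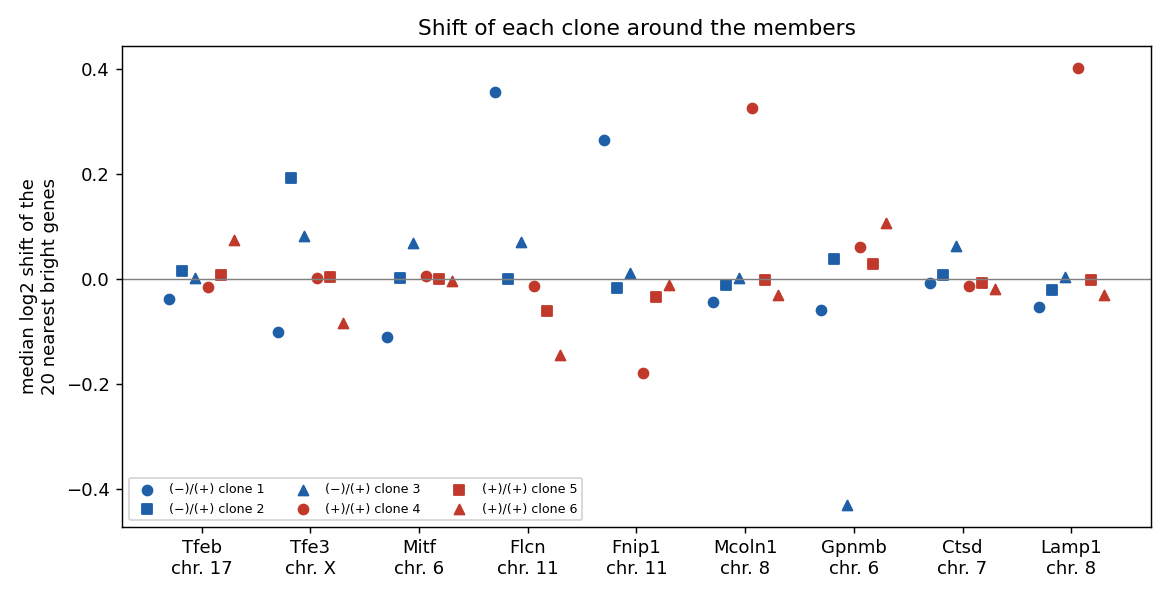
Median log2 shift of each clone over the 20 nearest genes with a mean signal above 500, around each of the 9 genes (chromosome named below). The points around Tfeb and Mitf lie near 0, whereas clone 1 reaches 0.36 around Flcn, clone 4 reaches 0.40 around Lamp1 and clone 3 falls to -0.43 around Gpnmb.

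The other genes of the pathway were taken from 10 lists of 177 genes, which leave out the 9 genes above. The lists come from knowledge of the pathway, but were drawn up with earlier results of these data known. Of these, 167 were measured and 162 tested, and 0 passed in either direction (limma, adjusted over all tested probe sets), beside 2.96% of all 11177 genes tested (1.55% higher and 1.41% lower). At an unadjusted p under 0.05 there were 10 higher and 17 lower, 27 of 162 (16.7%), beside 20.9% of all genes, and 27 by the methods' t-test, of which 0 met its fold and signal criteria. The groups did not overlap for 46 of the 162 genes (28.4%, beside 26.3% of all genes). The median log2 difference was -0.07, which is -0.02 from the median of all genes tested. All 162 estimates lay within 1 on the log2 scale, and for 158 the whole 95% interval did. The 4 with a wider interval were Castor1, Acp5, Tpcn2 and Plekhm2, named after their values were seen.

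Upstream of the factors, the Rag, Ragulator and folliculin list had 10 tested genes with a median of -0.01. Its brightest were Lamtor1 (-0.11), Lamtor5 (0.12) and Rraga (0.15), which build the platform that recruits mTORC1. Fnip2, the relative of Fnip1, named after its values were seen, gave 1075, 1256 and 1250 in clones 1, 2 and 3, against 964, 1003 and 873 in clones 4, 5 and 6. The groups did not overlap, but the difference of -0.33 did not pass (adjusted p = 0.156). Rragd, which encodes RagD and was also named with its values known, differed by -0.30 (adjusted p = 0.243).

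The list of mTORC1 and its regulators had 18 tested genes with a median of -0.11. Mtor, the kinase itself, gave 1484, 2020 and 1464 in clones 1, 2 and 3, against 1106, 1198 and 1171 in clones 4, 5 and 6, a difference of -0.49 (adjusted p = 0.0805). Its groups did not overlap, and its other tested probe set differed by 0.33, the opposite direction. Rheb, the small GTPase that activates mTORC1, differed by 0.23 (adjusted p = 0.146) and Sesn1 by -0.06 (-0.24 and 0.03 on its other probe sets). The list of kinases, phosphatases and 14-3-3 proteins had 13 tested genes with a median of 0.02. Gsk3a and Gsk3b, the targets of CHIR99021, were named with their values known and differed by -0.13 and -0.09, and the other tested Gsk3b probe sets by -0.31 to 0.05. The brightest of that list were the 14-3-3 genes Ywhaq (0.22), Ywhaz (0.18) and Ywhab (-0.14).

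Among the lysosomal lists, the vacuolar ATPase, which acidifies the lysosome, had 16 tested genes with a median of 0.08, or 0.13 above that of all genes. Its brightest genes, Atp6v1g1, Atp6ap2 and Atp6v1c1, differed by 0.14, -0.17 and 0.07. The 14 tested proteases had a median of -0.16, with Scpep1 at -0.002 on its brightest probe set. Ctsl and Ctsz had no single direction. Their brightest probe sets differed by 0.07 and -0.35 (adjusted p = 0.123 for Ctsz), the other tested one of Ctsl by -0.40 and those of Ctsz by 0.15 and 0.11. The 29 tested hydrolases of sugars, lipids and sulfates had a median of -0.17, or -0.12 from that of all genes, and 8 of the 29 (27.6%, 7 lower and 1 higher) had an unadjusted p under 0.05, beside 20.9% of all genes. Their brightest were Npc2 (-0.25, and -0.22 and -0.56 on its other probe sets), Asah1 (0.30) and Manba (0.18).

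The smallest adjusted p of the hydrolases was that of Ids, an enzyme that breaks down heparan and dermatan sulfate, named after its values were seen. It gave 707, 839 and 882 in clones 1, 2 and 3, against 491, 609 and 540 in clones 4, 5 and 6. The groups did not overlap, and the difference was -0.55 (adjusted p = 0.0619). Another tested Ids probe set differed by 0.12. Without clone 1 the Ids difference was -0.64 (adjusted p = 0.0378).

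The 19 tested lysosomal membrane proteins had a median of -0.14, with Lamp2, the relative of Lamp1, at -0.24, Cd164 at -0.02 and Laptm4a at 0.08. The 17 tested genes for delivery to the lysosome had a median of -0.13, with Vps35 of the retromer at 0.29 (adjusted p = 0.132, and 0.70 on its other tested probe set). M6pr, a mannose 6-phosphate receptor, was at -0.23 (-0.47 on its other tested probe set), which went from -0.46 without clone 3 to -0.10 without clone 1. Rab7, a GTPase of late endosomes, was at 0.23 (0.42 on its other tested probe set), which went from 0.41 without clone 3 to -0.05 without clone 2. The 26 tested autophagy genes had a median of -0.03, and 4 of the 26 (15.4%, all higher) had an unadjusted p under 0.05, beside 20.9% of all genes. The brightest were Gabarapl2 (0.44, adjusted p = 0.093), Map1lc3b (0.09) and Nbr1 (-0.08). Gabarapl2, Map1lc3b, Vps35 and Asah1 lie on chromosome 8, over which clone 4 was shifted by 0.41. Clone 4 was highest for Vps35, Asah1 and Map1lc3b, and clone 6 for Gabarapl2. Without clones 1 and 4 the difference was 0.19 for Asah1 and -0.057 for Map1lc3b. Each clone left out in turn gave 0.33 to 0.58 for Gabarapl2 and 0.21 to 0.38 for Vps35. The same gave 0.24 to 0.35 for Asah1 and -0.043 to 0.18 for Map1lc3b. The part of the clone 4 shift in the differences of these 4 genes was not tested.

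Atg5, which is needed to join LC3 to the autophagosome membrane, had the smallest adjusted p of all 162 genes and was named after its values were seen. It gave 990, 937 and 931 in clones 1, 2 and 3. It gave 1243, 1320 and 1323 in clones 4, 5 and 6. The groups did not overlap, and the difference was 0.44 ± 0.11 (SE, adjusted p = 0.0579). Its other tested probe sets differed by 0.36 and 0.42. Sqstm1, the autophagy receptor p62, is a common readout of these factors and was named with its values known. It differed by -0.08 on its brightest probe set, with clone 1 highest at 3031 and clone 2 lowest at 1561. The other tested probe set differed by -0.47. Sqstm1 lies on chromosome 11, where clone 1 stood apart.

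**Figure D5:**
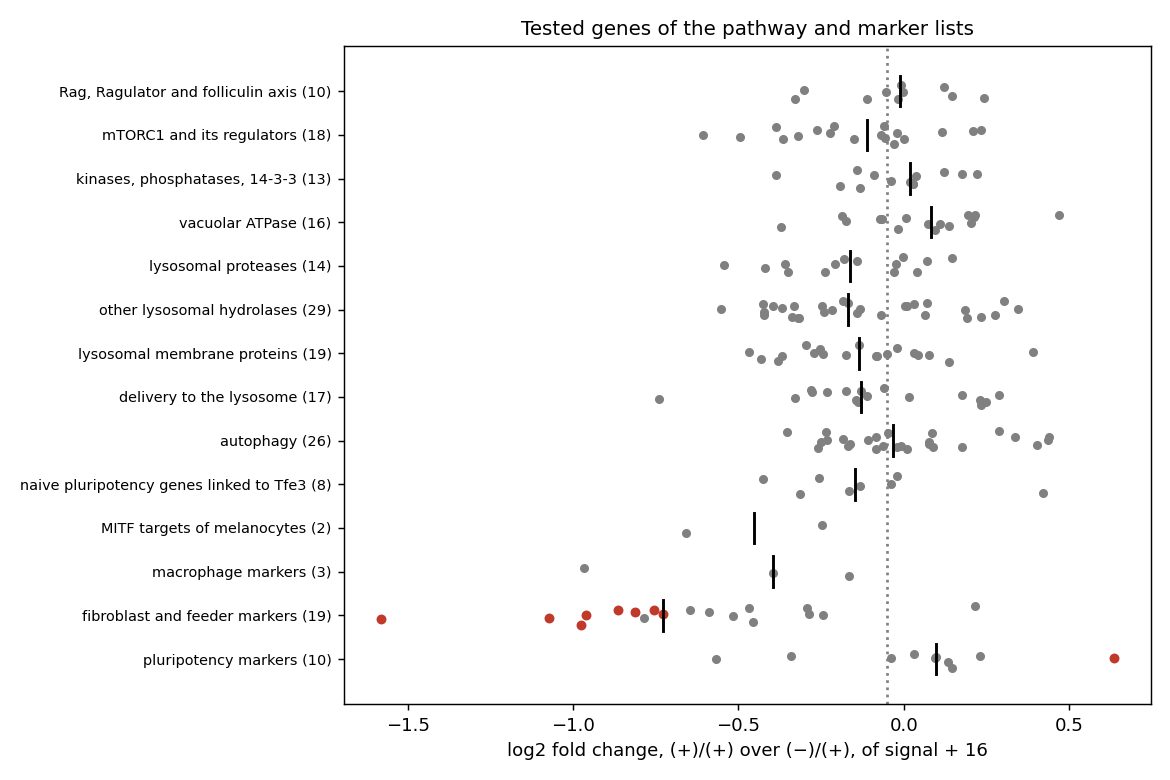
Log2 difference, (+)/(+) over (−)/(+), of every tested gene in the pathway and marker lists, with the number tested in brackets; red points passed the test, black bars are list medians and the dotted line is the median of all tested genes. The pathway lists hold 0 red points and the fibroblast and feeder list holds 8, all to the left.

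Naive pluripotency genes that Tfe3 is linked to in mouse embryonic stem cells were 8, all tested, and 0 passed (limma, 1 higher and 1 lower at an unadjusted p under 0.05). Esrrb, a direct target of Tfe3 there, Tfcp2l1, a naive factor, and Zfp42, a marker of naive cells, were named after their values were seen. Esrrb gave 1890, 3280 and 2563 in clones 1, 2 and 3, against 2299, 2329 and 2106 in clones 4, 5 and 6. The groups overlapped, and the difference was -0.16 (adjusted p = 0.615), with -0.11 and 0.22 on its other probe sets. The brightest of the list, Klf4, Klf2 and Nr0b1, differed by -0.04, -0.02 and -0.13. Zfp42 was at 2921 to 3372 in the (−)/(+) clones and 3893 to 4553 in the (+)/(+) clones, without overlap (0.42, adjusted p = 0.0578). Zfp42 and Klf2 lie on chromosome 8, where clone 4 stood apart, and clone 4 was the highest for Zfp42 but not for Klf2. Tfcp2l1 gave 3439, 5925 and 5287 in clones 1, 2 and 3, against 2929, 3920 and 3856 in clones 4, 5 and 6, with overlap (-0.43, adjusted p = 0.23).

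Promoter letters were then set beside the group difference. Of 140 pathway genes with a window, 35 held CACGTG and 16 (11.4%) held TCACGTGA, while CACGTG was in 12.2% and TCACGTGA in 2.26% of the 9118 tested genes with a window. TCATGTGA was in 12 of the 140 (8.57%), against 0.921% of the 9118. All 206 tested genes with TCACGTGA in a window had a median log2 difference of -0.05, and the 8912 without it also -0.05. Of the 206, 1 was called higher, Zfp207, and 2 lower, Ubap2 and Medag (1.46%, beside 2.87% of those without it), all named from these calls. The 16 tested pathway genes with the letters had a median of -0.10 and the 114 without them also -0.10.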

How the data were processed

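Total RNA of 6 iPSC clones was labelled with biotin and hybridised to Affymetrix Mouse Genome 430 2.0 arrays. The deposited values are MAS 5.0 signal intensities, scaled by the authors to one trimmed mean per array; presence calls and probe-level data were not used here. The 64 control probe sets among 45101 were dropped. Values were taken as log2(signal + 16), the 22518 probe sets whose mean exceeded the median were tested, and limma 3.58.1 (lmFit, eBayes with trend, under R 4.3.3) gave the group comparison, with Benjamini-Hochberg adjustment over all tested probe sets. List genes were represented by their brightest probe set. The 9 genes and the lists were chosen with earlier results of these data known. The genes named are all probe sets of the 9 genes, up to 4 called genes of each list or, with none called, the 3 brightest, and the 5 genes most correlated with Tfeb; others are said to be named after their values were seen. Motifs and figures were handled in Python 3.11.15 with matplotlib 3.10.9. Alternatives were quantile and median scaling, pseudocounts of 1 and 64, no filter or one at a mean signal of 500, no trend in eBayes, weighting of arrays (arrayWeights), averaging the probe sets of each gene, the methods' t-test (p under 0.05, over 2.5-fold, mean signal above 500) and leaving out each clone; leaving out clones 1 and 4, and genes of chromosomes 6, 8 and 11, was chosen after seeing the data.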

Additional observations from a re-analysis of the deposited data

How the results depend on the processing

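Of 856 recomputed values of 52 single genes and probe sets, 15 newly passed, 18 no longer passed and 34, of 15 pathway and marker genes that were not called, turned in sign. The 856 include 153 values of the examined probe sets other than Tfeb, which are given with no p-value. Of these 153, a further 20 turned in sign (8 probe sets, of Tfe3, Flcn, Fnip1, Mcoln1 and Lamp1). The Tfeb difference was -0.87 with a pseudocount of 64 and lay between -1.55 and -1.05 with each clone left out. Counts over all probe sets, higher and lower (305 and 398), became 917 and 238 with median scaling, 101 and 120 with no filter, 87 and 178 without trend, 1015 and 1512 with arrayWeights, 31 and 5 by the methods' t-test, and 0 and 1 after its Benjamini-Hochberg adjustment. Quantile normalization gave 255 lower, a mean signal above 500 gave 165 lower, and leaving out clones 1 and 4 gave 535 higher. Leaving out each clone in turn gave 27 to 446 higher and 25 to 515 lower, with the lowest counts without clone 6. The 0 pathway genes called became 7 higher with median scaling (Rheb, Atp6v1h, Asah1, Ostm1, Gabarapl2, Rb1cc1 and Atg5), 5 higher and 12 lower with arrayWeights, 1 higher with a mean signal above 500 (Atg5), with the probe sets of each gene averaged (Gabarapl2) and without genes of chromosomes 6, 8 and 11 (Atg5), 1 lower with quantile normalization (Npc2), and 3 higher and 1 lower without clones 1 and 4. With arrayWeights the 5 higher were Atp6v1h, Vps35, Rb1cc1, Atg5 and Atg12. The 12 lower were Fnip2, Mtor, Ppp3r1, Atp6ap1, Ctsa, Ctsz, Gaa, Gusb, Arsb, Ids, Npc2 and Ppt1. Leaving out each clone gave 0 to 1 higher and 0 to 2 lower pathway genes, with calls only without clone 1 (Atp6v1h, Ctsa and Ids) or clone 2 (Ppp3r1). In the main fit, other tested probe sets went the opposite way for Atp6v1h (-0.44), Rb1cc1 (-0.09), Ctsa (0.11) and Ids (0.12). They also did for Mtor (0.33) and Ctsz (0.15 and 0.11). For the other called genes named here that had any, they went the same way. Signs turned with median scaling for Lamtor1 (0.047), Sesn1 (0.10), Ywhab (0.017), Scpep1 (0.16), Cd164 (0.14), Nbr1 (0.074), Klf2 (0.14), Klf4 (0.12) and Nr0b1 (0.026), with arrayWeights for Ctsl (-0.043), Scpep1 (0.12), M6pr (0.014), Map1lc3b (-0.012) and Klf4 (0.025), for Ctsl with quantile normalization (-0.052) and with its probe sets averaged (-0.16), and without clones 1 and 4 for Rraga (-0.0034), Scpep1 (0.074) and Map1lc3b (-0.057). Leaving out each clone spanned 0 for Ctsl (-0.0072 to 0.18), Scpep1 (-0.10 to 0.084), Cd164 (-0.046 to 0.019), Rab7 (-0.045 to 0.41), Map1lc3b (-0.043 to 0.18), Klf2 (-0.12 to 0.052), Klf4 (-0.091 to 0.039), Nr0b1 (-0.45 to 0.17) and Trpm1 (-0.60 to 0.17). The causes of these changes were not tested. No paired analysis was possible because the clone numbers (1 to 3 and 4 to 6) are not shared between the groups. Precision is limited by 3 arrays per group, and for Tfeb and Gpnmb by signals near the filter.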
